A study of Homo sapiens with 6 samples.

Results

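Homologous recombination genes and Fanconi anaemia genes were followed as 1 set of 34 genes, chosen by symbol from a list of known pathway members and not from measured values. Of the 34, 29 had a transcript cluster (the array's stand-in for a gene) with that single symbol among the 22411 genes so named, and RBBP8, BRCA2, FANCA, FANCD2 and RAD54B were not analysed here. Each measured gene had 1 cluster. The cells were HaCaT, a spontaneously immortalised human keratinocyte line, so all arrays describe 1 established line. In the mock group 3 cultures received 0 Gy, in the irradiated group 3 cultures received a single X-ray dose of 20 Gy at 1.15 Gy per min, and RNA was collected after 48 h. Sample titles number the biological replicates 1 to 3 in both groups, and irradiated and mock cultures were compared pair by pair, with 1 array per culture. Values are deposited log2 signals, on which a difference of 1 is a doubling, and signals of different genes come from different probes and were not set against each other.

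Homologous recombination repairs a double-strand break by copying the sister chromatid, and cells therefore use it mainly in S and G2 phase. Broken ends are first cut back to single strands, a recombinase filament is then loaded on them with the help of BRCA2 and its partners, and the joint molecules that form are finally untangled or cut. The Fanconi pathway acts on crosslinked DNA and stalled forks: a core complex attaches ubiquitin to the FANCD2 and FANCI pair, and recombination finishes the repair. Many of these genes are transcribed more strongly in dividing cells, and their transcript levels are known to follow the share of cells in S and G2 phase.

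Of the 29 measured genes, 24 had a mean over the 6 arrays above the brightest of 23 background control sets (6.01), and these 24 were tested. Array medians ran from 4.53 to 4.66, and precision throughout is limited by there being only 3 arrays per group. Keratinocyte identity was checked with 12 markers, of which 9 were measured and all 9 lay above the limit, among them KRT5, KRT14 and DSG3, while 0 of 6 measured fibroblast markers, 0 of 5 endothelial markers and 1 of 5 melanocyte markers (MITF) did. Irradiated cultures were compared with their mock partners in a limma fit over the 9324 named genes above the limit, with the replicate number as a block. In that fit 467 genes passed an adjusted p of 0.05 (5.01%), 121 of them higher (1.3%) and 346 lower (3.71%). The split of calls depends on scaling: 119 higher and 84 lower passed after quantile normalization, 116 and 63 after cyclic loess, and 180 and 89 with each array centred on the genes tested. The limma fit without the block called 0 of the same genes, with 312 at an unadjusted p under 0.05.

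None of the 24 recombination and Fanconi genes passed the paired limma test in either direction (0 called), beside 5.01% of all genes above background. At an unadjusted p under 0.05 there was 1 of the 24 (4.17%), beside 28.9% of all genes. FANCF came nearest, 1.51-fold lower after irradiation at an adjusted p of 0.0532. The other 23 differences ran from -0.15 for MRE11 to 0.12 for XRCC3. The median over the 24 genes was -0.049, with 10 above 0 and 14 below, while the median over all 9324 genes was -0.089. With arrays centred on the genes tested these medians were 0.050 and 0.0093, and the sign of the set's median thus depends on scaling. Under the rescalings 0 of the 24 genes passed, beside 2.18% of all genes after quantile normalization, 1.92% after cyclic loess and 2.89% after centring, and 2 of the 24 (8.33%) had an unadjusted p under 0.05 in each, beside 21.9%, 21.7% and 21.9% of all genes. The limma 95% interval of each difference lay inside a 2-fold change either way for all 24 genes and inside a 1.5-fold change for 23, with FANCF the exception. These intervals were taken gene by gene and are not adjusted for the number of genes. They use variances that limma drew toward a trend over all genes, which narrows them where a gene's pairs disagree most. For EXO1 the pair differences had an SD of 0.51, the limma standard error was 0.18 and the interval ran from -0.34 to 0.51. Its difference in pair 3, 0.68, lay outside that interval, so the intervals do not bound the change in a single pair.

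**Figure D1:**
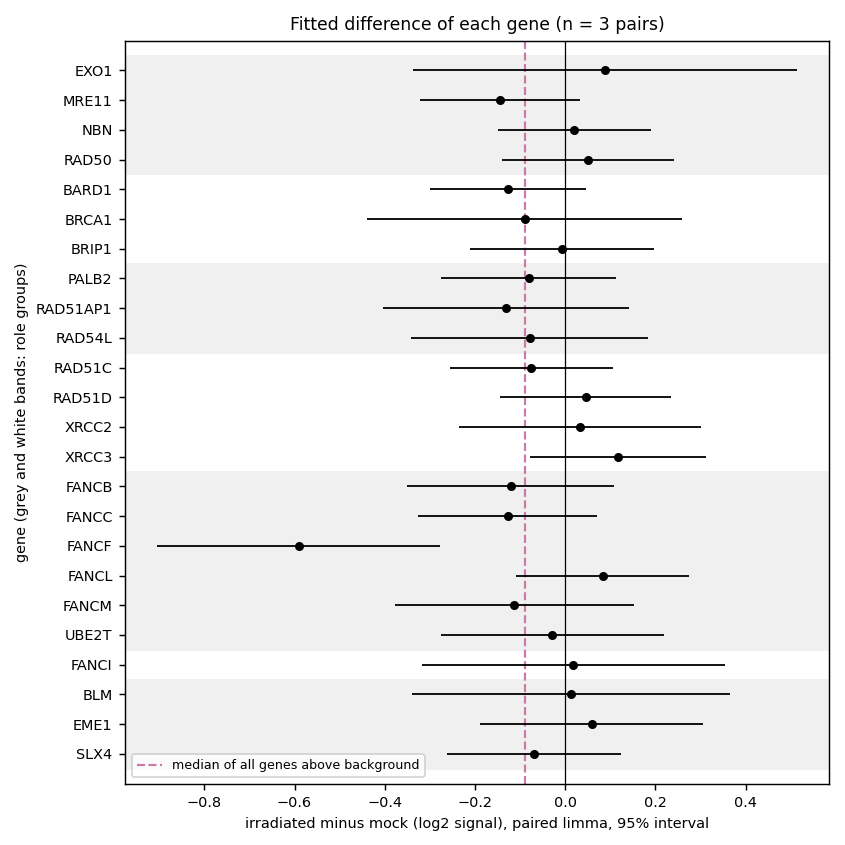
Fitted difference of each of the 24 genes above background, irradiated minus mock on the log2 scale (horizontal axis), from the paired limma fit with 3 pairs. Points are estimates, bars are 95% intervals, the dashed line is the median of all 9324 genes (-0.089) and grey and white bands part the role groups. FANCF, at -0.59, is the gene whose interval does not include 0.

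FANCF, an adaptor that holds parts of the Fanconi core complex together, had signals of 7.70, 7.67 and 8.37 in mock cultures 1, 2 and 3 and of 7.38, 7.20 and 7.38 in the irradiated ones. All irradiated values lay below all mock values, and mock culture 3 stood well above the other mock cultures. Of the 24 genes FANCF was the only one whose groups did not overlap, and 7.69% of all genes above background were lower without overlap. The pair differences were -0.32, -0.47 and -0.99, and the fitted difference was -0.59 with a 95% interval from -0.90 to -0.28. The paired limma test gave an unadjusted p of 0.00324 and an adjusted p of 0.0532. The adjusted p fell below the threshold in 2 settings, at 0.0488 without pair 1 (1.68% of all genes called lower) and 0.0490 over genes with a mean above 7 (4.84%). It was 0.107, 0.111 and 0.110 after quantile normalization, cyclic loess and centring, and 0.126 over all named genes. The fit without the block gave an unadjusted p of 0.0304. Without pair 3 the difference was -0.39, and without mock replicate 3 alone, in a fit without the block, -0.36.

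Promoter sequence is shown for FANCF, the gene nearest the threshold, and for BLM, EXO1 and XRCC2, whose signals differed most between mock cultures 2 and 3 (see the culture values further on). Each run is RefSeq sequence of the GRCh38.p14 table, from 250 bases before to 50 bases after the annotated gene start, read 5′ to 3′ on the gene's strand, and capitals mark every match to 3 motifs searched on both strands. The motifs were the E2F sites TTTCCCGC, TTTGGCGC, TTTCGCGC and TTTGCCGC, the CHR element of late cell cycle genes (TTTGAA or TTCGAA) and the CCAAT box (CCAAT). The windows were chr11:22625774-22626073 (minus strand) for FANCF, chr15:90717096-90717395 (plus strand) for BLM, chr1:241847954-241848253 (plus strand) for EXO1 and chr7:152676092-152676391 (minus strand) for XRCC2.
FANCF: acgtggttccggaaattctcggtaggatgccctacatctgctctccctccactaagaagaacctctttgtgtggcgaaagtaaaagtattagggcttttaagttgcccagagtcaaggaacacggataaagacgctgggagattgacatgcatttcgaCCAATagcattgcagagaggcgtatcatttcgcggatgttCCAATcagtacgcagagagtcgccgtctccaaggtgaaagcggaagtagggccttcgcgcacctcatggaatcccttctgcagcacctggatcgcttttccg
BLM: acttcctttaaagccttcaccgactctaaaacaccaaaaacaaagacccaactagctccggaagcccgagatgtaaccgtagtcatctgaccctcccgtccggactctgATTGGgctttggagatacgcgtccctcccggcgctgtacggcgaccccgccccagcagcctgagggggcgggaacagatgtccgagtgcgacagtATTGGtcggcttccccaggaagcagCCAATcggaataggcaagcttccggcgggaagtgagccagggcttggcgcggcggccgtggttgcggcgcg
EXO1: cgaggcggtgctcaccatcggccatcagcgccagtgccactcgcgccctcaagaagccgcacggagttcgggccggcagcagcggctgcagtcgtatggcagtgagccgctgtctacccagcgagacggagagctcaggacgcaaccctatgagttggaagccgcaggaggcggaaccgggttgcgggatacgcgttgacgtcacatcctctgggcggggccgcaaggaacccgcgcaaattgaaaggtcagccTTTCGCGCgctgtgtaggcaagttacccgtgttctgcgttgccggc
XRCC2: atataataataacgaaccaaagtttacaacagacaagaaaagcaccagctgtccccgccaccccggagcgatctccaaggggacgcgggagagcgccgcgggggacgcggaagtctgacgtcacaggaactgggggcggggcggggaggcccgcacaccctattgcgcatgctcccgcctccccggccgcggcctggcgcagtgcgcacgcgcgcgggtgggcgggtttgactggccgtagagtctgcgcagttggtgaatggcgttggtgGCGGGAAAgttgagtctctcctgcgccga
In the FANCF window the capitals are 2 CCAAT boxes, whose first bases lie at -92 and -52 from the start site, and in the BLM window 3 CCAAT boxes, at -141, -46 and -21. EXO1 holds 1 E2F match beginning at 5 and XRCC2 1 beginning at 22, in both cases just inside the transcribed part.

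The genes that sense breaks and cut back their ends were spread around 0. MRE11, the nuclease subunit of the MRE11-RAD50-NBN complex, had signals of 10.02, 10.49 and 10.18 in mock cultures 1 to 3 and 9.88, 10.27 and 10.11 after irradiation. It was lower in each pair, by a mean of 0.15, which did not pass (adjusted p = 0.241, paired limma). After quantile normalization, cyclic loess and centring its difference was -0.064, -0.051 and -0.047, and pair 3 then lay at 0.023, 0.0081 and 0.0061. RAD50, the ATPase that tethers the ends, lay at 12.05, 11.99 and 10.64 in mock cultures and 12.00, 12.01 and 10.82 in irradiated ones, so culture pair 3 was low in both groups while the fitted difference was 0.050 (adjusted p = 0.703). NBN, which recruits the ATM kinase, had a difference of 0.020 (adjusted p = 0.870). EXO1, the exonuclease of long-range resection, had mock signals of 9.68, 10.46 and 8.35 and irradiated signals of 9.48, 10.25 and 9.03. Its pair differences were -0.20, -0.21 and 0.68, so the irradiated culture was the lower one in pairs 1 and 2 and the higher one in pair 3, and the fitted 0.089 did not pass (adjusted p = 0.767).

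In the BRCA1 group, on the deposited scale, BRCA1 and BRIP1 were lower in pairs 1 and 2 and higher in pair 3 (13.5% of all genes). BARD1 was lower in each pair on that scale. BRCA1, a ubiquitin ligase subunit that favours resection and filament loading, had signals of 9.22, 10.04 and 8.41 in mock cultures and 8.95, 9.67 and 8.78 in irradiated ones. The pair differences of -0.27, -0.37 and 0.37 gave a fitted difference of -0.090 (adjusted p = 0.709, paired limma), which turned to between 0.0050 and 0.0086 under the 3 rescalings. The ligase partner BARD1 had mock signals of 8.72, 9.39 and 8.98 and irradiated signals of 8.58, 9.20 and 8.93. BARD1 was lower in each pair, by a mean of 0.13 that did not pass (adjusted p = 0.286), and 41.9% of all genes above background were lower in each pair. Under the 3 rescalings, in the same order as for MRE11, its difference was -0.026, -0.031 and -0.028, with pair 3 above 0 at 0.054, 0.037 and 0.026. BRIP1, a helicase that binds BRCA1, lay at -0.0072 (adjusted p = 0.963), with -0.034, -0.15 and 0.16 in the pairs. Under the 3 rescalings BRIP1 lay above 0 in pair 1, at 0.082, 0.091 and 0.097.

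Of the genes that load the filament and drive strand exchange, PALB2, RAD51AP1 and RAD54L lay above background. PALB2, which links BRCA1 with BRCA2, had a difference of -0.081 (adjusted p = 0.534, paired limma). RAD51AP1, which stimulates strand invasion, had mock signals of 8.93, 9.46 and 8.47 and irradiated signals of 8.97, 9.01 and 8.49, so its difference of -0.13 (adjusted p = 0.468) rested on pair 2 (-0.46), with 0.046 and 0.016 in pairs 1 and 3. RAD54L, a translocase that acts on the filament, ran from -0.36 in pair 1 to 0.20 in pair 3, with a fitted -0.079 (adjusted p = 0.661). These 3 genes thus lay below 0 on the deposited scale without passing, and PALB2 lay at 0.0069 after quantile normalization.

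The paralogs of the recombinase work in complexes that stabilise the filament. XRCC3 had mock signals of 7.04, 7.03 and 6.67 and irradiated signals of 7.01, 7.14 and 6.94, with a difference of 0.12 that did not pass (adjusted p = 0.376, paired limma). After quantile normalization, cyclic loess and centring the difference of XRCC3 was 0.19, 0.19 and 0.22. The same test then gave an unadjusted p of 0.0421, 0.0490 and 0.0258 and an adjusted p of 0.212, 0.228 and 0.167. RAD51C, the subunit that the paralog complexes share, varied little: its signals ran from 8.99 to 9.08 in mock cultures and from 8.88 to 9.10 in irradiated ones, and its difference was -0.075 (adjusted p = 0.534). RAD51D lay at 0.045 (adjusted p = 0.732). XRCC2 had mock signals of 8.58, 9.69 and 7.88 and irradiated signals of 8.47, 9.55 and 8.23. Culture 2 was the highest and culture 3 the lowest of XRCC2 in both groups, and the fitted difference was only 0.032 (adjusted p = 0.867).

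In the group of the Fanconi core complex and its conjugating enzyme UBE2T, 6 of 8 measured genes lay above background. Of these 6, 1, FANCL, had a difference above 0. Over all genes 2626 of 9324 had a difference above 0. FANCL, the ubiquitin ligase of the complex, lay at 0.083 (adjusted p = 0.517, paired limma), and UBE2T, the conjugating enzyme that works with it, at -0.028 (adjusted p = 0.874). UBE2T turned to 0.066, 0.067 and 0.070 after quantile normalization, cyclic loess and centring. FANCB lay at -0.12 (adjusted p = 0.432) and FANCC at -0.13 (adjusted p = 0.347), and FANCM, a translocase that brings the complex to DNA, at -0.11 (adjusted p = 0.525). FANCB, FANCC and FANCM had differences from -0.38 to -0.28 in pair 1 and from 0.042 to 0.17 in pair 3, so these pairs went opposite ways for all 3 genes. FANCI, the partner of FANCD2 in the pair that the core complex marks with ubiquitin, had mock signals of 11.64, 12.14 and 10.60 and irradiated signals of 11.34, 12.06 and 11.04. Its pair differences of -0.30, -0.077 and 0.43 nearly cancelled to a fitted 0.018 (adjusted p = 0.943).

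Of 4 genes for processing joint molecules 3 lay above background. BLM, the helicase that dissolves double Holliday junctions, had mock signals of 9.81, 10.87 and 9.10 and irradiated signals of 9.45, 10.82 and 9.54. Its pair differences were -0.36, -0.051 and 0.44, and the fitted 0.012 did not pass (adjusted p = 0.963, paired limma). EME1, the regulatory subunit of the MUS81 nuclease, lay at 0.058 (adjusted p = 0.737) and SLX4, a scaffold for structure-specific nucleases, at -0.069 (adjusted p = 0.592). On the deposited scale all 3 were lower in pairs 1 and 2 and higher in pair 3, as were 13.5% of all genes. After quantile normalization, cyclic loess and centring EME1 lay above 0 in pair 1 (0.083, 0.080 and 0.13). BLM then lay above 0 in pair 2 (0.0044, 0.033 and 0.040), while SLX4 kept the pattern.

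**Figure D2:**
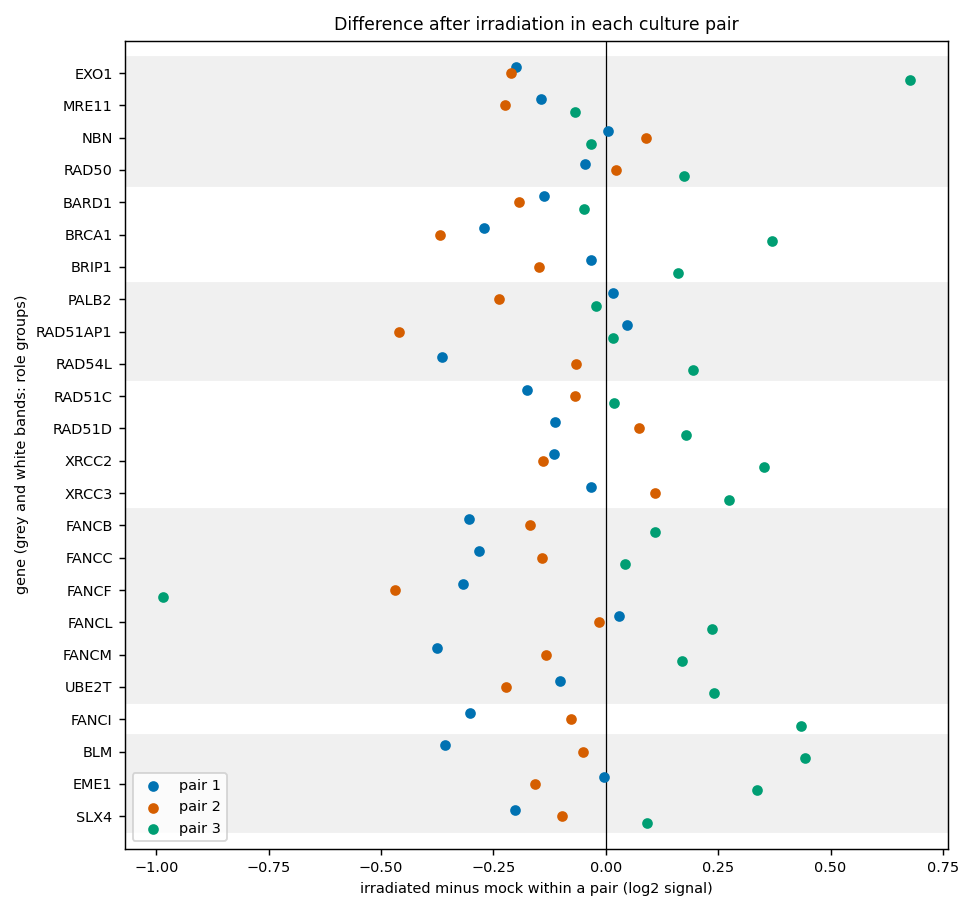
Irradiated minus mock log2 signal (horizontal axis) of the 24 genes above background, 1 point for each of the 3 culture pairs, with grey and white bands parting the role groups. In pair 3 (green) 19 of 24 genes lie above 0 (79.2%, beside 37.9% of all genes), up to 0.68 for EXO1, with FANCF at -0.99. In pair 1 (blue) 20 of 24 lie below 0 (83.3%, beside 74.6% of all genes) and in pair 2 (orange) 20 of 24 (83.3%, beside 66.4%). After quantile normalization, cyclic loess and centring those lower in pair 1 numbered 14, 14 and 13 (52.2%, 53.8% and 46.9% of all genes). In pair 2 they numbered 18, 16 and 15 (56.3%, 52.3% and 47.9% of all genes).

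Across the set the pairs went different ways. The median over the 24 genes was -0.14 in pair 1, -0.14 in pair 2 and 0.17 in pair 3, against -0.12, -0.079 and -0.063 over all genes above background. In pair 3, 19 of the 24 genes were higher (79.2%) beside 37.9% of all genes. Of the 24, 14 were lower in pairs 1 and 2 and higher in pair 3 (58.3%), beside 13.5% of all genes, 0 were higher in all 3 pairs (9.94% of all genes) and 3, BARD1, FANCF and MRE11, were lower in all 3 (41.9%). This was looked at after the pair values had been seen, has no replicate within a pair and was not tested. Scaling moved these counts: 11, 9 and 8 genes had this pattern over the 3 pairs after quantile normalization, cyclic loess and centring (11.3%, 10.8% and 9.08% of all genes). After quantile normalization and after cyclic loess, RAD50, NBN, XRCC3 and FANCL were higher in all 3 pairs (4 of 24, 16.7%, beside 20.6% and 21.4% of all genes). After centring RAD51D joined them (5 of 24, 20.8%, beside 25.2%). FANCF alone was lower in all 3 pairs under each rescaling (1 of 24, 4.17%, beside 24.7%, 24.1% and 20.0% of all genes). Under each of these 3 rescalings 23 of 24 genes were higher in pair 3, with a median from 0.22 to 0.25, while the medians in pair 1 lay between -0.040 and -0.0099 and those in pair 2 between -0.078 and -0.050.

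For these genes the cultures differed from each other by more than irradiated from mock. Mock culture 3 was the lowest mock array for 19 of the 24 genes (79.2%, against 43.1% of all genes) and mock culture 2 the highest for 19 (79.2%, against 35.5%). Mock culture 2 exceeded mock culture 3 for 22 of 24, by a median of 0.90 on the log2 scale against 0.044 over all genes, with FANCF and RAD51C the exceptions and values up to 2.10 for EXO1, 1.81 for XRCC2 and 1.77 for BLM. After irradiation the median gap between cultures 2 and 3 was 0.57, and it was narrower than in the mock cultures for 22 of the 24 genes (91.7%, against 50.3% of all genes). Cultures 2 and 3 were set against each other after the values had been seen, as the mock extremes of most of these genes. The change in gap restates the differences in pairs 2 and 3, so it is not a separate result, and it was not tested. For 24 of 24 genes the range over the mock cultures exceeded the irradiated minus mock difference (89.1% of all genes), with a median range of 0.96 and a median absolute difference of 0.080. These measures are unlike, since a range spans single arrays while pair differences of opposite sign cancel in a mean. The median SD was 0.49 over the mock cultures and 0.19 over the pair differences, beside 0.23 and 0.13 over all genes. In a fit without the block and without mock replicate 3 the set's median was -0.27 with 0 of 24 genes above 0, and without mock replicate 2 it was 0.17 with 19 above 0. These medians largely restate the gap between mock cultures 2 and 3 and are not a separate result. Without both arrays of pair 3 the paired limma median was -0.16, with 3 genes above 0, 4 at an unadjusted p under 0.05 (16.7%, beside 23.2% of all genes) and 0 called (1.5% of all genes).

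**Figure D3:**
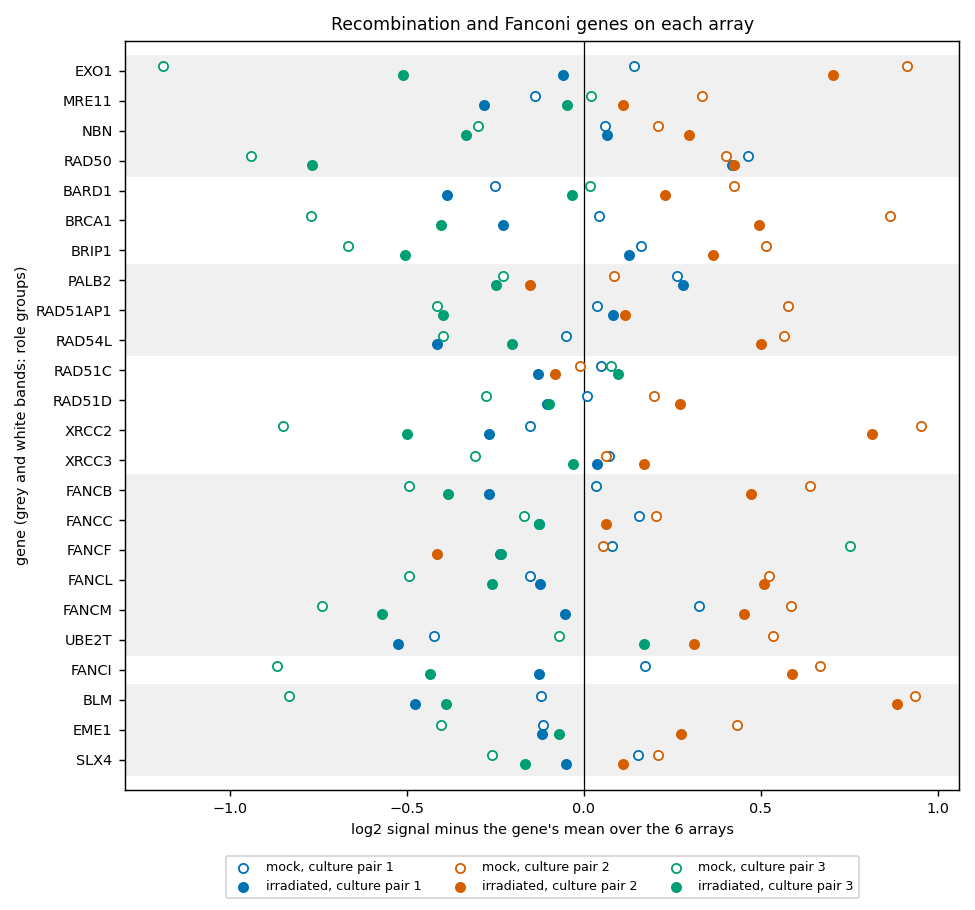
Log2 signal of each of the 24 genes above background on each of the 6 arrays, as the distance from that gene's mean over the arrays (horizontal axis). Open circles are mock and filled circles irradiated cultures, and colour marks the culture pair. For most genes orange points (pair 2) lie right and green points (pair 3) left, EXO1 reaching from 8.35 to 10.46 before subtraction, and FANCF is turned round, with the open green circle furthest right.

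Cell cycle and keratinocyte genes moved with the cultures too. Of 30 DNA replication genes 28 were measured above background, and 28 of 28 were higher in mock culture 2 than in mock culture 3, by a median of 1.04. Of all 9324 genes 5049 were higher in mock culture 2, with a median gap of 0.044. Pair medians of the replication genes were -0.15, -0.037 and 0.38, with 16 of 28 in the pattern of lower, lower and higher (57.1%, beside 13.5% of all genes). After quantile normalization, cyclic loess and centring 10, 10 and 7 of 28 had it (11.3%, 10.8% and 9.08% of all genes). In the paired limma test 0 of 28 passed, beside 5.01% of all genes. GINS1, a subunit of the replicative helicase, had the smallest p of the list and lay at 0.36 (adjusted p = 0.0673, and 0.0471 after centring, when 2 of the 28 passed). Mitosis genes were also higher in mock culture 2 than in mock culture 3 for 28 of 28 genes above background (median 0.81). Their pair medians were -0.28, -0.30 and 0.028, and 2 of 28 passed, beside 5.01% of all genes. MAD2L1, a spindle checkpoint protein, was 0.43 higher (adjusted p = 0.0410, paired limma). MKI67, a nuclear protein of proliferating cells, had a fitted difference of -0.40 (adjusted p = 0.0448) and did not pass under the 3 rescalings. Leaving out any 1 pair ended both calls. Keratinocyte markers went the other way between cultures, with mock culture 2 below mock culture 3 for 8 of 9 and a median gap of -1.01. Median keratinocyte signals were 15.32, 15.41 and 15.74 in mock cultures 1 to 3 and 14.88, 14.94 and 15.67 in irradiated ones. Of these 9 markers DSP, PKP1 and KRT15 were lower (3 called, beside 3.71% of all genes called lower). Of the called markers PKP1 also passed after centring, while 0 passed after quantile normalization or cyclic loess. Leaving out any 1 pair ended the call of DSP, leaving out pair 1 or 2 that of PKP1, and leaving out pair 2 or 3 that of KRT15. The part of cell cycle stage or of keratinocyte state in the values of the recombination genes was not tested, and in whole-culture RNA fewer cells of a kind cannot be told apart from less RNA per cell.

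**Figure D4:**
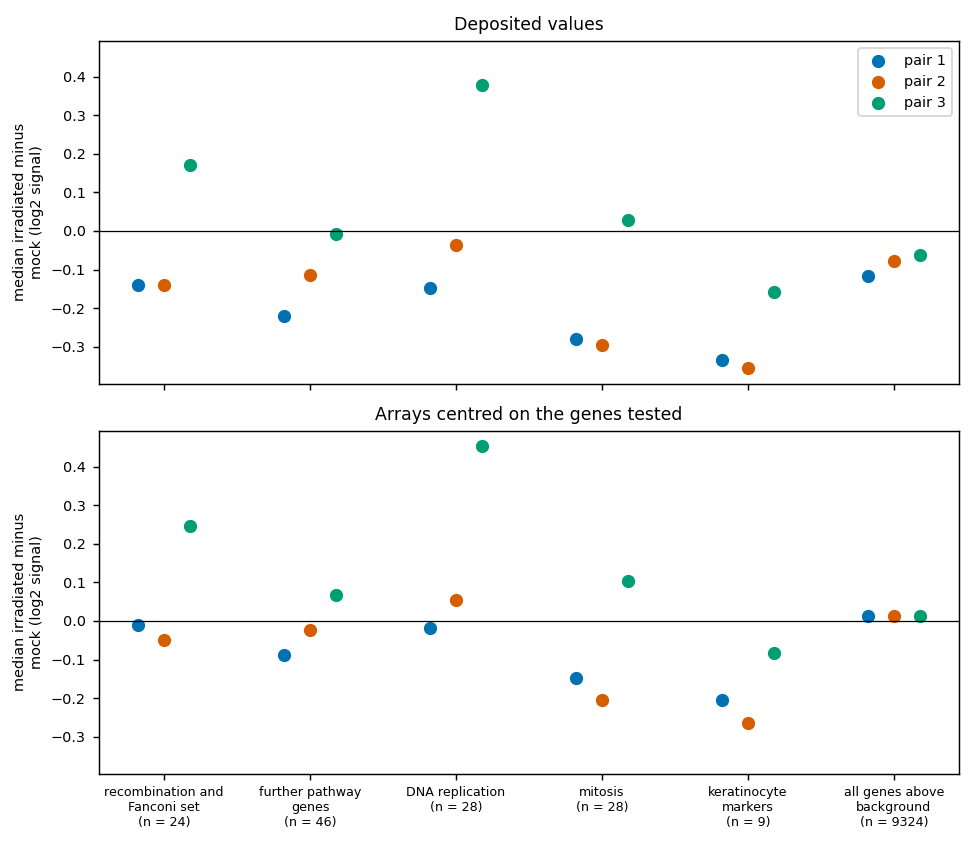
Median irradiated minus mock difference in log2 signal (vertical axis) over the genes of each list, 1 point for each culture pair, for the deposited values (top) and with each array centred on the genes tested (bottom). Pair 3 (green) lies highest in each list on both scales except over all genes after centring, where the 3 pairs lie between 0.012 and 0.014, and the recombination and Fanconi set is at 0.17 and 0.25 in pair 3.

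A wider list of 56 other recombination and Fanconi genes (checkpoint kinases, single-strand binding proteins, further helicases and nucleases, core complex accessory proteins and ubiquitin regulators) had 54 measured and 46 above background. In the paired limma test 0 of 46 were higher and 1, SLX4IP, was lower, beside 1.3% and 3.71% of all genes. SLX4IP, which binds the SLX4 scaffold, had mock signals of 8.63, 8.65 and 8.85 and irradiated signals of 8.08, 8.17 and 8.42. It was thus lower in each pair without overlap of the groups, and it fell by 0.49 (adjusted p = 0.0266, limma), and by 0.40, 0.39 and 0.39 after quantile normalization, cyclic loess and centring (adjusted p = 0.0459, 0.0496 and 0.0425). Leaving out a pair or testing all named genes (adjusted p = 0.0880) ended the call, with an adjusted p of 0.0502 without pair 1, 0.0888 without pair 2 and 0.0606 without pair 3, at differences from -0.52 to -0.46. MCM9, a helicase subunit of recombination, came next by p at -0.25 (adjusted p = 0.0779) and did not pass. The list's median was -0.092, close to the -0.089 of all genes, and 19 of 46 genes were lower in each pair (41.3%, against 41.9% of all genes). Its pair medians were -0.22, -0.11 and -0.0067, and mock culture 2 exceeded mock culture 3 by a median of 0.30.

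Motif matches in the promoter windows were counted for the 22 of 24 genes above background with a RefSeq promoter (FANCI and NBN had no entry). E2F matches were present in 3 of 22 (13.6%), EXO1, FANCC and XRCC2, beside 5.91% of the 7118 matched genes above background, 3.33% of all 27305 promoters and 61.5% of the 26 matched replication genes. CHR matches were present in 3 of 22 (13.6%), BRIP1, FANCC and UBE2T, beside 12.0% of genes above background, 16.6% of all promoters and 69.6% of the 23 matched mitosis genes. CCAAT boxes were present in 10 of 22 (45.5%), beside 38.4% of genes above background, 35.7% of all promoters, 65.4% of the replication genes and 78.3% of the mitosis genes. Of the genes with an E2F match, EXO1 and XRCC2 had the widest gaps between mock cultures 2 and 3 in the set, 2.10 and 1.81, while FANCC had a gap of 0.37. BLM, without an E2F match in its window, had a gap of 1.77.

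The 5 measured genes below the background limit were RAD52, an annealing protein, RAD51B, FANCE, FANCG and MUS81. Their signals ran from 4.81 to 5.87 over all arrays, and none reached the limit on any array, so the size of their differences is not determined. FANCE, which links the core complex to its substrate, had the widest difference among them, -0.21, with mock signals of 5.11, 5.39 and 5.09 and irradiated signals of 4.81, 5.14 and 5.01. The others lay between -0.13 for RAD52 and 0.017 for FANCG. Over all 29 measured genes the median was -0.069, with 12 above 0 and 17 below.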

How the data were processed

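Biotin-labelled RNA from 6 HaCaT cultures was hybridised to 1 array each. The authors deposited log2 signals per transcript cluster, and the submitters' processing notes name RMA as a tool. The sources used here give no version, array library file or genome build. The exon-level table was not used here, since no table paired its features with genes. Clusters were named from the platform annotation where it gave 1 symbol (23781 of 67528 clusters), updated through RefSeq gene tables.

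On the deposited log2 values limma 3.58.1 was run in R 4.3.3 (lmFit, eBayes with a variance trend, two-sided, Benjamini-Hochberg over all genes of the fit, threshold 0.05), with the replicate number as a block and over named genes whose mean exceeded 6.01. Numbers come from the sample titles. Over these genes each array's deviation from its group mean was compared: same-numbered arrays had correlations of 0.852, 0.906 and 0.923, and others -0.713 to 0.0321, so the numbers were taken to pair the cultures. Deviations from a group mean cancel within the group, so the low values of the others partly follow from the high ones and are not separate support. The sources do not say how the cultures were separated. P-values and intervals of the fit with the block rest on the spread of the differences between only these 3 pairs. Those of the fit without it rest on the spread between only these cultures. In each fit limma draws a gene's variance toward a trend over all genes, so neither measures that gene's own spread alone. The fit was tested on simulated data with noise independent between genes and planted changes larger than the difference of any member. That test therefore does not show whether changes of the members' size would be found. Alternatives were a fit without the block, left-out pairs and arrays, 3 rescalings, other filters and all clusters. No member had a second cluster, so that alternative was not run. Members were taken by symbol and not by value, but members, lists and tests were all set with earlier results of these data known. By rule, each role group gave the 2 genes with the smallest p and the genes with the largest difference either way, the further pathway list its called genes, and each other list its gene with the smallest p. XRCC2, BLM, MCM9, MKI67, DSP, KRT15 and the remaining members with printed differences were added after their values were seen.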

Additional observations from a re-analysis of the deposited data

How the results depend on the processing

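Of the 24 members above background, FANCF alone was called by any alternative run, in 2 settings (1 lower over genes with a mean above 7, and 1 lower without pair 1). With a pair or a single array left out, 0 to 1 of the 24 was called lower and 0 higher, and over all genes 0 to 94 were higher and 0 to 157 lower, the 0 coming from fits without the block. Over all genes, fits without the block, over all named genes and over all transcript clusters called 0 higher and 0 lower (312, 4905 and 10237 at an unadjusted p under 0.05), and decreases numbered 84, 63 and 89 after quantile normalization, cyclic loess and centring. The replicate numbers were used as pairs, and without that block 0 of 24 genes were called, as with it. The set's median ran from -0.27 to 0.17 with a pair or array left out and was 0.044, 0.044 and 0.050 under the rescalings. The count lower in pairs 1 and 2 and higher in pair 3 fell from 14 to 9 after cyclic loess and 8 after centring (11 after quantile normalization). The count lower in all 3 pairs went from 3 to 1 under each rescaling, and the count higher in all 3 from 0 to 4 after quantile normalization, 4 after cyclic loess and 5 after centring. These pattern alternatives were all chosen after seeing the data. Signs turned after quantile normalization, cyclic loess and centring for BRCA1 (0.0050, 0.0063 and 0.0086), BRIP1 (0.088, 0.089 and 0.092), PALB2 (0.0069, 0.015 and 0.018), RAD51C (0.022, 0.021 and 0.023) and UBE2T (0.066, 0.067 and 0.070), and after centring only for RAD54L (0.020) and SLX4 (0.030), none called. With pairs or single arrays left out, genes whose sign turned ran over these differences: RAD50 -0.41 to 0.45, NBN -0.12 to 0.19, EXO1 -0.48 to 0.57, BRCA1 -0.50 to 0.32, BARD1 -0.28 to 0.053, BRIP1 -0.34 to 0.25, PALB2 -0.24 to 0.03, RAD51AP1 -0.37 to 0.12, RAD54L -0.35 to 0.19, RAD51D -0.081 to 0.16, XRCC2 -0.39 to 0.52, XRCC3 -0.0073 to 0.19, FANCB -0.40 to 0.17, FANCL -0.15 to 0.37, FANCM -0.51 to 0.15, UBE2T -0.25 to 0.23, FANCI -0.41 to 0.36, BLM -0.43 to 0.48, EME1 -0.13 to 0.29, SLX4 -0.22 to 0.019. FANCF, MRE11, FANCC and RAD51C kept their sign in all 9 such fits. Of these 9, the fits without a single array had no block, so the gap between cultures entered their differences. BARD1, FANCB and FANCL, among others, turned only in fits without a single array and kept their sign with any pair left out. The cause of these shifts was not tested. With 3 pairs the 95% intervals reached 0.51 above 0 (EXO1) and, apart from FANCF, -0.44 below it (BRCA1). Scanner files were not used here, so background correction and scan batch could not be varied.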
